A study of Mus musculus with 4 samples.

Results

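To find genes that differ between *Dyrk2*-deficient and wild type (WT) mouse embryos at more than a single stage, both arrays labelled *Dyrk2*-/- were compared with both WT arrays, with the embryonic day as a block. The comparison used 4 of the 4 arrays of the series. Of the probes on the array, 28622 were well above background on all 4 arrays, as marked by the scanner software. The autosomal genes among them numbered 17851, each read by its brightest probe. The genes described were those that differed by 1.5-fold or more in the same direction at E8.5 and at E10.5 (E for embryonic day), together with the genes that passed a test over both stages. There were 57 such genes that were higher on both arrays labelled *Dyrk2*-/- (0.319% of the autosomal genes) and 41 that were lower (0.230%).

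Total RNA of whole C57BL/6 embryos was hybridized to 1-colour Agilent mouse arrays, on which the Cy3 brightness of each spot measures the transcript that its probe matches. The groups were WT and *Dyrk2* knockout at E8.5, and WT and *Dyrk2* knockout at E10.5, with 1 array each, all on 1 slide. The knockout alleles were small deletions made with the CRISPR/Cas9 nickase system and are carried by several lines. The labels do not say which line was used, and neither they nor the methods say how many embryos went into each RNA. The scanner marked 31371 against 30227 probes as well above background at E8.5 and 31819 against 31943 at E10.5 (WT and then *Dyrk2*-/-, the order used for every pair of values here). A level is the log2 intensity of a probe relative to the 75th percentile of its array, and a difference is the level on the array labelled *Dyrk2*-/- minus that on the WT array of the same stage. With 1 array per group a difference at a stage has no replicate check, and the small number of arrays limits the precision. The test over both stages holds no spread between replicate arrays. Its spread comes from the difference between the stages of a probe (1 residual degree of freedom). More weight falls on the spread of probes of similar intensity (8.52 prior degrees of freedom).

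The targeted gene did not check the labels. The brightest *Dyrk2* probe (chr10:118296479-118296538, mm9) had levels of 0.06 against 0.76 at E8.5 and −0.31 against 0.34 at E10.5. On the array labelled *Dyrk2*-/- the signal was higher at each stage, by 1.62-fold and 1.57-fold, which placed *Dyrk2* itself among the 57 genes, although it did not pass limma's test (difference 0.67 ± 0.14 (SE), Benjamini-Hochberg adjusted p = 0.256). Its differences were 0.14 and 0.81 with spike-in scaling and 0.44 and 0.52 without scaling, so that under either it fell short of 1.5-fold at 1 stage or more. The other *Dyrk2* probe differed by 0.03 (E8.5) and 0.28 (E10.5). At E8.5 its difference turned to −0.53 when the arrays were scaled by spike-in control probes, to −0.23 without scaling and to −0.01 with scaling by the median. Where these probes lie relative to the deletions was not determined, so that every direction given here rests on the submitters' labels. Within 5 Mb of *Dyrk2*, a window chosen after the data were seen, 66 other genes were measured, 0 of them among the 57 and 41, and their median differences were −0.09 at E8.5 and −0.03 at E10.5. Outside the window the called EST BI657997, the only other of the 57 and 41 on chromosome 10, lay 7.11 Mb from the *Dyrk2* probe.

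The embryos on the E10.5 arrays also differed in sex-linked transcripts. *Xist*, the RNA of the silenced female X, was at least 20.4-fold above the WT array on the *Dyrk2*-/- array of E10.5, and below background on the other 3 arrays. The Y-linked *Eif2s3y*, *Ddx3y* and *Uty* were at least 43.2-fold, 6.72-fold and 6.71-fold lower there, while *Kdm5d* differed by −0.17. At E10.5 sex and genotype cannot be told apart. For this reason the genes below are autosomal, and X-linked genes are given apart from them. This leaves out sex-linked genes but does not separate sex from genotype for the autosomal genes at E10.5.

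Erythropoiesis in the mouse begins in blood islands of the yolk sac, from which large nucleated primitive red cells enter the circulation, and a definitive wave later seeds the fetal liver. Maturing erythroblasts respond to erythropoietin through its receptor, switch on globin genes under factors such as GATA1, KLF1 and NFE2, make heme in mitochondria, and build a membrane skeleton anchored to the anion exchanger band 3. Dyrk2 is a kinase of the dual-specificity tyrosine-regulated family, which has been studied in protein degradation, ciliogenesis and hedgehog signaling.

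The genes that were higher at both stages included transcripts of red cells. Of the 57 genes, 11 belonged to 6 lists of erythroid genes, which held 102 measured autosomal genes, and 0 of the 41 lower genes did. Thus 10.8% of the erythroid genes were 1.5-fold or more higher at both stages, beside 0.319% of all autosomal genes. The lists were chosen with earlier results of these data known, so that these shares are a description and not a test. By any amount, 57 of the 102 were higher at both stages and 17 were lower, beside 4228 (23.7%) and 4469 (25.0%) of the 17851. These counts changed with the scaling, to 23 higher and 41 lower of the 102 without scaling and 18 and 6 with spike-in scaling. In whole embryos more cells of a type and more RNA per cell cannot be told apart. The labels give only the embryonic day. With 1 array per group, a difference in the exact age of the embryos cannot be told apart from genotype either. The median difference of the 102 genes was 0.10 (E8.5) and 0.16 (E10.5), turning at E8.5 to −0.46 with spike-in scaling and −0.15 with no scaling, beside −0.01 and 0.00 over all autosomal genes. The median over both stages, 0.15, turned to −0.05 with spike-in scaling and to −0.05 without scaling, settings that moved the median of all autosomal genes to −0.20 and −0.20.

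Across the 17851 genes, differences at the stages had little in common. Past 1.5-fold, 663 genes were higher and 576 lower at E8.5, and 248 were higher and 286 lower at E10.5. A further 35 genes (0.196%) passed 1.5-fold at both stages in opposite directions, 24 of them higher at E8.5 and lower at E10.5. Across genes, which are not independent replicates, Pearson's r between the differences of the stages was 0.0674 and Spearman's rho was −0.00472. The 57 higher genes had median differences of 0.90 (E8.5) and 0.87 (E10.5), with 37 of them larger at E8.5. The 41 lower genes had medians of −0.79 and −0.76. Many were dim, with a median level of −1.28 for the higher and −1.91 for the lower genes, beside 0.77 over all.

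Scaling by spike-in control probes moved the median difference of all autosomal genes to −0.57 (E8.5) and 0.16 (E10.5), whereas leaving the arrays unscaled moved it to −0.27 and −0.13. Past 1.5-fold at both stages under every one of the 6 scalings and background corrections tried were 17 of the higher genes, 7 of them in the erythroid lists (*Slc4a1*, *Epor*, *Nfe2*, *Blvrb*, *Rhd*, *Sptb* and *Ank1*), and 6 of the lower genes. Counts of small differences followed the scaling. With spike-in scaling 520 autosomal genes were higher and 3059 lower at both stages by any amount, and without scaling 786 and 11817.

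**Figure D1:**
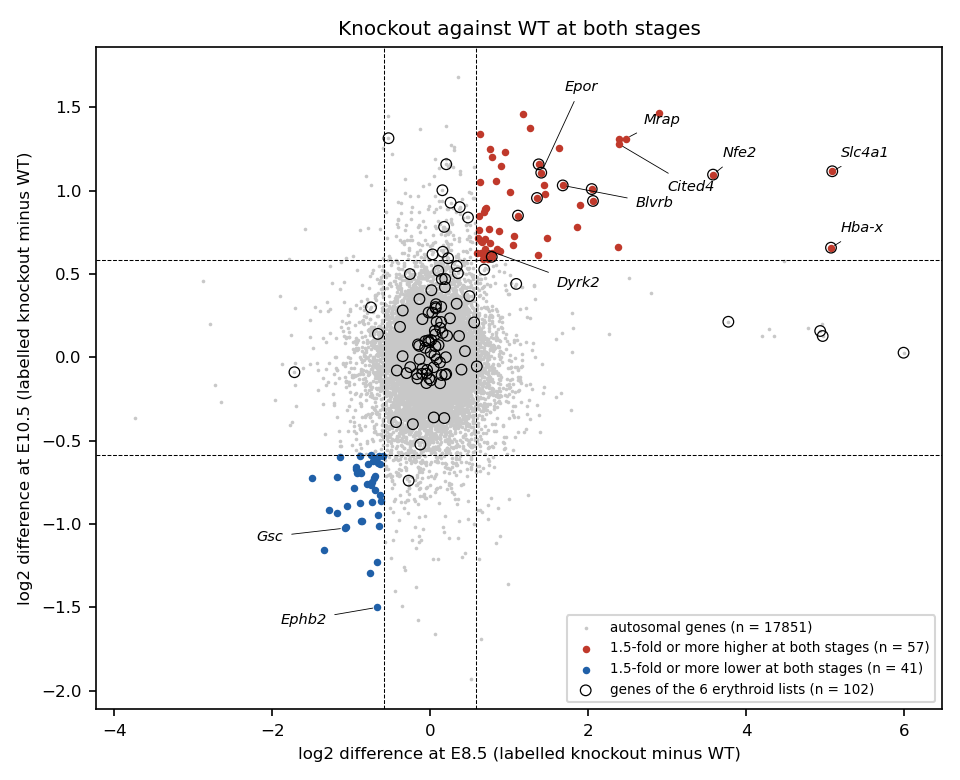
Log2 difference between the array labelled *Dyrk2* knockout and the WT array at E8.5 (x axis) and at E10.5 (y axis), 1 point per autosomal gene (n = 17851), with dashed lines at 1.5-fold. Red and blue points are the 57 genes higher and the 41 lower at both stages, black rings are the 102 genes of the erythroid lists, and 11 rings lie on red points and 0 on blue.

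Over both stages, limma called 10 of 28622 probes at an adjusted p under 0.05 (0.0349%), 9 higher and 1 lower. They stood for 9 autosomal genes (0.0504%) and the X-linked *Slc38a5*. At an unadjusted p under 0.05 there were 968 autosomal genes. All 9 called genes also passed 1.5-fold at both stages. They were *Epor*, *Acp5*, *Slc25a37*, *Cited4*, *Blvrb*, *Redrum*, the EST BI657997 and a lincRNA on chromosome 2, which rose, and the transcript ENSMUST00000117861 on chromosome 7, which fell. These calls depended on how the spread was estimated and on the scaling. Spike-in scaling, limma without the intensity trend and the fit without the block each gave 0 autosomal genes, with 64, 929 and 52 at an unadjusted p under 0.05. With 2 arrays of each genotype an exact permutation test cannot reach 0.05.

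Among the genes of cytokine signaling, *Epor* encodes the erythropoietin receptor, on which the survival of late erythroid progenitors depends. Its levels were −1.05 against 0.35 at E8.5 and 1.14 against 2.25 at E10.5. Both arrays labelled *Dyrk2*-/- thus lay 2.65-fold and 2.15-fold above the WT array of their stage, and limma gave a difference of 1.26 ± 0.14 (SE), adjusted p = 0.0349. Of the 18 measured genes of erythropoietin, transferrin and stem cell factor signaling, 9 were higher and 4 lower at both stages by any amount, and only *Epor* passed 1.5-fold at both. *Steap3*, the ferrireductase of the transferrin cycle, had differences of 0.68 (E8.5) and 0.53 (E10.5), and *Pim1*, a kinase gene induced by cytokines, of 0.50 (E8.5) and 0.37 (E10.5), the first of which turned to −0.07 under spike-in scaling. *Trf*, which encodes transferrin and is made in the yolk sac and liver, lay on the other side at its brightest probe, with −0.43 (E8.5) and −0.39 (E10.5), while its other probe differed by 0.07 and −0.39. The list's median was 0.08 (E8.5) and 0.18 (E10.5), and at E8.5 it turned to −0.48 with spike-in scaling and −0.17 without scaling.

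Of the 19 measured genes of the red cell membrane and its skeleton, 5 were 1.5-fold or more higher at both stages, and 13 were higher and 3 lower by any amount. *Slc4a1*, the gene of the anion exchanger band 3, had levels of −4.56 against 0.54 at E8.5 and 2.67 against 3.78 at E10.5. The E8.5 arrays were far apart and the E10.5 arrays 2.17-fold, and limma did not call the gene (3.10 ± 0.66 (SE), adjusted p = 0.283). *Icam4*, which encodes the LW blood group glycoprotein of erythroblasts, had levels of −4.52 against −3.15 at E8.5 and −1.12 against 0.04 at E10.5. Its differences of 1.37 and 1.16 were of similar size at the stages (1.27 ± 0.19 (SE), adjusted p = 0.0806 by limma). *Rhd*, a gene of the Rh blood group complex, differed by 2.05 (E8.5) and 1.01 (E10.5). The beta spectrin gene *Sptb* and the ankyrin gene *Ank1*, whose products tie band 3 to the skeleton, differed by 1.35 and 0.96 and by 2.06 and 0.94. *Smim1*, which carries the Vel blood group and was not in the list, had levels of −1.14 against −0.20 at E8.5 and 0.38 against 1.61 at E10.5 (adjusted p = 0.0581 by limma). The list's median was 0.14 (E8.5) and 0.32 (E10.5), and at E8.5 it turned to −0.42 with spike-in scaling and −0.12 without scaling.

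Heme synthesis and iron handling held 23 measured genes, of which 16 were higher and 2 lower at both stages by any amount, and 2 passed 1.5-fold at both, each also called by limma. *Slc25a37* encodes mitoferrin-1, the importer of mitochondrial iron in erythroblasts. It had levels of 2.30 against 3.41 at E8.5 and 4.05 against 4.90 at E10.5, a difference of 0.98 ± 0.12 (SE), adjusted p = 0.0485 by limma, and its other 3 probes were higher at both stages too. *Blvrb*, the gene of biliverdin reductase B, had levels of −1.68 against 0.00 at E8.5 and 1.17 against 2.20 at E10.5, which were 3.20-fold and 2.04-fold apart (1.35 ± 0.17 (SE), adjusted p = 0.0485). The coproporphyrinogen oxidase gene *Cpox* differed by 0.37 (E8.5) and 0.90 (E10.5), the former turning to −0.19 under spike-in scaling. *Hebp1*, which encodes a heme-binding protein and was outside the list, was among the 57, with 0.71 and 0.90. The median of the list was 0.14 (E8.5) and 0.27 (E10.5), and at E8.5 it turned to −0.42 with spike-in scaling and −0.12 without scaling. With these scalings 2 and 4 of its genes were higher at both stages by any amount.

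All 5 measured autosomal genes of the globin list were higher at both stages, with a median of 4.97 (E8.5) and 0.16 (E10.5), and 4 of the 5 were with quantile normalization and 3 without scaling. *Hba-x*, the embryonic zeta globin of primitive red cells, was the only member of the 57 among them, with levels of 0.43 against 5.50 at E8.5 and 7.33 against 7.99 at E10.5. The embryonic beta-like globin *Hbb-y* had levels of 0.15 against 6.15 at E8.5 and 8.44 against 8.47 at E10.5. The E10.5 arrays hardly differed in *Hbb-y*, and the E8.5 arrays were 63.8-fold apart. *Hbb-bh1*, expressed early in primitive cells, differed by 3.78 (E8.5) and 0.21 (E10.5), and the adult alpha globin *Hba-a1* by 4.94 (E8.5) and 0.16 (E10.5). The other *Hba-a1* probe differed by 4.87 (E8.5) and 0.85 (E10.5), past 1.5-fold at both stages. Outside the measured set, the globin genes *Hbb-bt*, *Hbb-b2* and *Hbq1a* differed by 0.69, 0.85 and 1.37 at E10.5. Limma called 0 of the 5 measured genes, with 5 at an unadjusted p under 0.05. The summed level of the list, in multiples of the 75th percentile of each array, was 16.9 against 384 at E8.5 and 1405 against 1645 at E10.5, where the brightest gene by its sum over the 4 arrays was *Hbb-bh1*. By the same sum, heme and iron genes were at 464 against 441 at E8.5 and 501 against 607 at E10.5, and at 279 against 295 at E8.5 and 311 against 415 at E10.5 without *Ftl1*, the brightest by its sum. Red cell enzymes were at 505 against 484 at E8.5 and 443 against 482 at E10.5. The sums were 203 against 212 at E8.5 and 177 against 203 at E10.5 for the membrane list, 56.5 against 62.0 at E8.5 and 53.4 against 61.7 at E10.5 for the signaling list and 69.2 against 72.6 at E8.5 and 82.5 against 91.1 at E10.5 for the transcription factors.

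Erythroid transcription factors were mixed, with 7 of 20 higher and 7 lower at both stages by any amount and medians of 0.04 (E8.5) and −0.05 (E10.5), turning at E8.5 to −0.52 with spike-in scaling, −0.22 with no scaling and −0.01 with median scaling, and at E10.5 to 0.11 with spike-in scaling. *Nfe2*, the hematopoietic subunit of the NF-E2 factor that acts on globin genes, had levels of −4.12 against −0.54 at E8.5 and 0.16 against 1.25 at E10.5 and passed 1.5-fold at both stages (2.34 ± 0.43 (SE), adjusted p = 0.171 by limma). *Lyl1*, a helix-loop-helix factor of early blood cells, passed it too, with differences of 0.78 and 0.60. Its relative *Tal1* differed by 0.48 (E8.5) and 0.84 (E10.5), the former turning to −0.08 under spike-in scaling. *Gfi1*, known from myeloid and stem cells, differed by −0.27 (E8.5) and −0.74 (E10.5), the former turning to 0.14 after normexp correction. Red cell enzymes had 0 of 17 genes past 1.5-fold at both stages, 7 higher and 1 lower by any amount, and medians of 0.07 (E8.5) and 0.07 (E10.5), turning at E8.5 to −0.50 with spike-in scaling and −0.19 with no scaling, and at E10.5 to −0.06 with no scaling. The carbonic anhydrase gene *Car2* differed by 0.20 (E8.5) and 1.16 (E10.5), the former turning to −0.36 with spike-in scaling and −0.05 without scaling. Hexokinase *Hk1* differed by −1.72 (E8.5) and −0.09 (E10.5), the latter turning to 0.07 with spike-in scaling, and its other probe by 0.54 and −0.05, in the opposite direction at E8.5.

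Several defining erythroid genes were outside the autosomal set and are given as values. On the X chromosome, *Gata1* had levels of −4.01 against 0.26 at E8.5 and 0.98 against 2.21 at E10.5, the heme synthesis gene *Alas2* −3.83 against 0.24 at E8.5 and 2.45 against 3.66 at E10.5, and the glutamine transporter gene *Slc38a5* −0.23 against 1.45 at E8.5 and 1.23 against 2.40 at E10.5. Each was higher on both arrays labelled *Dyrk2*-/-, and limma called *Slc38a5* (1.42, adjusted p = 0.0349). *Ahsp*, the alpha hemoglobin chaperone, has no chromosome in the annotation used and differed by 4.75 (E8.5) and 1.33 (E10.5). Other genes were not well above background on the WT E8.5 array, so that only a lower bound can be given there, computed against the lowest signal well above background. *Klf1* was at least 3.99-fold higher at E8.5 and 2.50-fold at E10.5 and *Gfi1b* at least 5.96-fold and 2.09-fold. *Csf2rb*, the shared beta chain of cytokine receptors, was at least 23.5-fold and 2.41-fold higher. Not all erythroid genes outside the set were higher. At E10.5 *Car1*, *Bcl11a*, *Add2* and *Slc14a1* differed by −0.68, −0.71, −0.46 and −0.35. At E8.5 *Car1* was well above background on the WT array only, and *Add2* was at least 2.22-fold higher. *Epo* itself was below background on all 4 arrays. Of all 135 erythroid genes on the array, the scanner marked 110 against 121 at E8.5 and 132 against 132 at E10.5 as above background.

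Other higher genes had known roles in blood or were less well placed. *Cited4*, which encodes a CBP/p300-binding coregulator, had levels of −1.87 against 0.52 at E8.5 and 1.61 against 2.89 at E10.5 (1.84 ± 0.22 (SE), adjusted p = 0.0485 by limma). The long noncoding RNA *Redrum*, known from erythroblasts, had levels of −3.50 against −1.11 at E8.5 and −0.13 against 1.18 at E10.5 (1.85 ± 0.23 (SE), adjusted p = 0.0485). *Acp5*, the tartrate-resistant acid phosphatase of osteoclasts and macrophages, had levels of 0.55 against 2.001 at E8.5 and 3.95 against 4.98 at E10.5 (1.24 ± 0.14 (SE), adjusted p = 0.0349). In all 3 genes both E10.5 levels lay above both E8.5 levels. *Mrap*, the accessory protein of the ACTH receptor, was the first by rank among the RefSeq-named genes but just missed limma's threshold (−3.83 against −1.35 at E8.5 and −0.41 against 0.90 at E10.5; 1.90 ± 0.25 (SE), adjusted p = 0.0533). *Mir142hg*, the host transcript of a hematopoietic microRNA, was not matched to RefSeq and was named after its values were seen, with differences of 2.90 and 1.47. The called features without a gene symbol were BI657997 (chr10:111188222-111188281, mm9), with levels of 1.58 against 3.20 at E8.5 and 4.74 against 5.99 at E10.5 (adjusted p = 0.0191), and the lincRNA at chr2:179984396-179984455 (mm9), with −3.49 against −2.31 at E8.5 and −0.25 against 1.21 at E10.5 (adjusted p = 0.0485).

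Of the interferon response list 0 of 5 genes, and of the macrophage and myeloid list 1 of 11, were among the 57, and the genes named next were grouped after their values were seen. *Ncf4*, a subunit of the phagocyte NADPH oxidase, differed by 1.90 (E8.5) and 0.91 (E10.5), the myeloid receptor gene *Treml2* by 2.38 and 0.66, and the hematopoietic tetraspanin gene *Tspan32* by 1.06 and 0.73. The interferon-induced *Ifi35* had levels of −3.44 against −1.98 at E8.5 and −0.51 against 0.47 at E10.5, and *Uba7*, which encodes the enzyme that activates ISG15, differed by 1.86 and 0.78. By any amount, the interferon response list had 2 higher and 1 lower at both stages by any amount, with medians of −0.11 (E8.5) and 0.09 (E10.5), turning at E10.5 to −0.04 with no scaling. Matrix genes formed another pair. *Postn*, periostin of mesenchyme and heart valves, had levels of 0.96 against 1.72 at E8.5 and 1.14 against 2.39 at E10.5, and *Col1a1*, the main chain of type I collagen, had 2.36 against 3.11 at E8.5 and 3.72 against 4.41 at E10.5. Both had 2 further probes, all higher at both stages. *Chrna6*, a nicotinic receptor subunit, differed by 1.26 (E8.5) and 1.38 (E10.5) at dim levels, and *Pdia2*, a protein disulfide isomerase, by 1.01 and 0.99.

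The remaining RefSeq-named genes that were higher at both stages were *6030468B19Rik*, *Slc6a20a*, *Gpr146*, *Rpl34-ps1*, *Krtap20-2*, *Mgst3*, *Gm20063*, *Gm5093*, *Paqr6*, *Gm4961*, *Tinagl1*, *Nmnat3*, *E130304I02Rik*, *Vamp1* and *1700067G17Rik*. *Mgst3*, a microsomal glutathione transferase, differed by 0.68 (E8.5) and 0.87 (E10.5), and *Nmnat3*, the NAD-synthesizing enzyme of red cells, by 0.79 and 0.61. Of the 57 genes, 42 had a RefSeq name, 8 were lincRNAs named by position and 7 had other identifiers. Their differences spanned 0.60 to 5.09 (E8.5) and 0.59 to 1.47 (E10.5), and 14 reached 2-fold at both stages. The median level of the 57 was −3.38 against −1.35 at E8.5 and −0.41 against 0.84 at E10.5, while that of all autosomal genes lay at 0.78, 0.79, 0.79 and 0.77. The WT E8.5 array held the lowest of these member medians and the E10.5 array labelled *Dyrk2*-/- the highest.

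**Figure D2:**
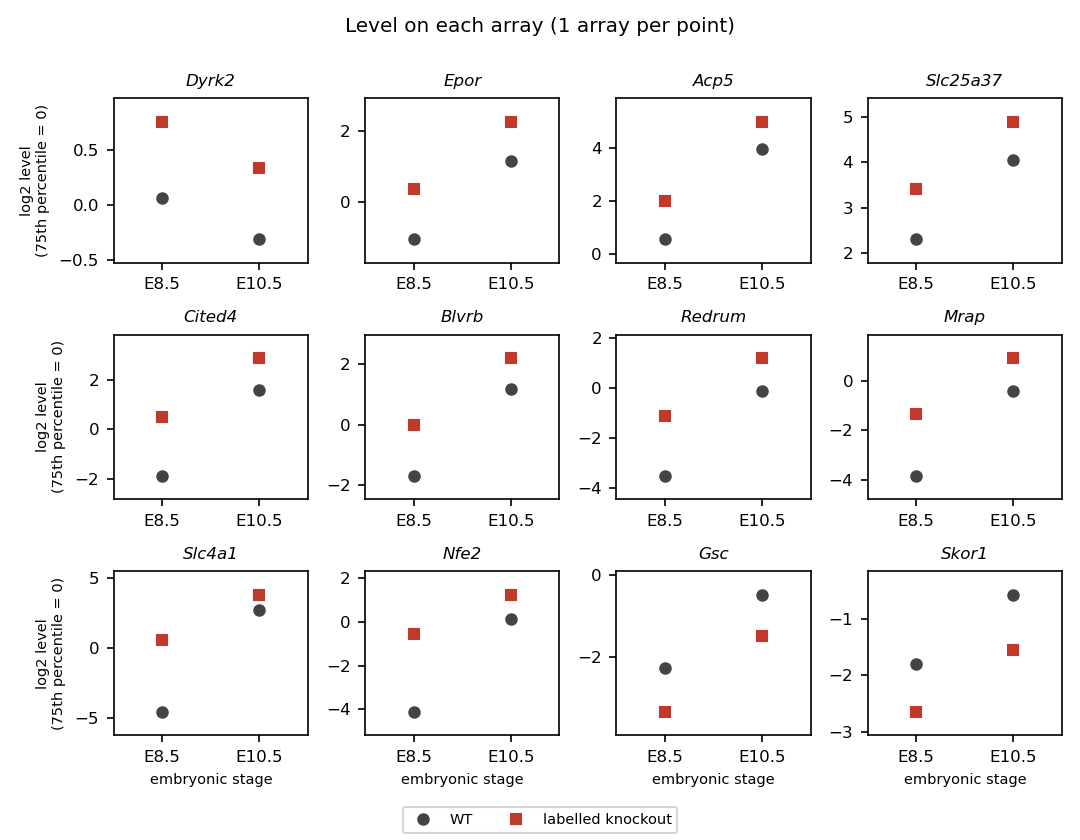
Log2 level (y axis, relative to the 75th percentile of each array) of 12 genes on the WT arrays (circles) and the arrays labelled *Dyrk2* knockout (squares) at E8.5 and E10.5 (x axis), with 1 array per point and no error bars. *Dyrk2* and the 9 genes from *Epor* to *Nfe2* lie higher on the knockout array at each stage, and *Gsc* and *Skor1* lie lower.

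Lower on both arrays labelled *Dyrk2*-/- were 41 genes, of which 31 had a RefSeq name, 3 were lincRNAs named by position and 7 had other identifiers. *Gsc*, the goosecoid homeobox gene of the organizer and later of the craniofacial mesenchyme, ranked first among the RefSeq-named genes, with levels of −2.27 against −3.36 at E8.5 and −0.48 against −1.51 at E10.5. It was 2.12-fold and 2.03-fold lower, and limma did not call it (−1.06 ± 0.18 (SE), adjusted p = 0.130). The corepressor gene *Skor1*, expressed in dorsal spinal cord interneurons, had levels of −1.79 against −2.65 at E8.5 and −0.57 against −1.56 at E10.5, and its other probe differed by −1.12 and −0.90. *Evx1*, a homeobox gene of the primitive streak, tail bud and V0 interneurons, had levels of 3.42 against 2.79 at E8.5 and −0.45 against −1.27 at E10.5. *Hhip*, which encodes a decoy receptor of hedgehog ligands and is itself a target of the pathway, had levels of −0.39 against −1.28 at E8.5 and 0.10 against −0.59 at E10.5, and its other probe differed by −0.60 and −0.54. In these 4 genes the array labelled *Dyrk2*-/- was the lower at each stage, with adjusted p-values of 0.130, 0.173, 0.157 and 0.192 by limma.

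Of the neural list, 0 of 21 genes were among the 41, and the neuronal genes named here come from outside it and were grouped after their values were seen. *Rbfox1*, an RNA-splicing regulator of neurons and muscle, differed by −1.18 (E8.5) and −0.72 (E10.5) and at its other probe by −0.93 and −0.80. *Ntng1*, a netrin-G axon guidance gene, differed by −0.92 and −0.69, the calcium channel subunit gene *Cacna2d3* by −0.70 and −0.79, and *Vxn*, which encodes the neurogenesis factor vexin, by −0.81 and −0.76. *Robo3*, the receptor that guides commissural axons, had levels of −0.75 against −1.41 at E8.5 and 2.53 against 1.59 at E10.5, and *Slc32a1*, the vesicular GABA transporter, had 0.11 against −0.56 at E8.5 and −0.11 against −1.34 at E10.5. *Dtnbp1*, encoding dysbindin, had levels of 3.37 against 2.64 at E8.5 and 3.73 against 2.98 at E10.5, and its differences of −0.73 and −0.75 kept past 1.5-fold under all 6 scalings. *Gtse1*, a G2 and S phase gene, did so too, with levels of 1.12 against 0.37 at E8.5 and 1.05 against 0.29 at E10.5. *Vtn* and *F2*, genes of the plasma proteins vitronectin and prothrombin, differed by −0.88 and −0.59 and −0.75 and −0.59, and the complement factor B gene *Cfb* by −0.96 and −0.78.

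Some lower genes rested on a single probe that others of the same gene did not share. Of the 41, 9 had further probes on all 4 arrays, and in 5 of these a further probe was not lower at both stages, whereas the further probes of all 7 such higher genes were higher. *Bcl7a*, of the SWI/SNF complex, differed by −1.49 and −0.72 at its brightest probe and by 0.05 and −0.14 at the other. The ephrin receptor gene *Ephb2* differed by −0.68 and −1.50 and at the other probe by 0.24 and −0.19, and the RNA-binding *Celf3* by −1.14 and −0.60 and 0.71 and −0.06. *Igfbpl1* and *Svopl* were the other 2. The called transcript ENSMUST00000117861 (chr7:34821600-34821659, mm9) had levels of 5.16 against 3.81 at E8.5 and 5.11 against 3.95 at E10.5, so that both arrays labelled *Dyrk2*-/- lay below both WT arrays (−1.25 ± 0.12 (SE), adjusted p = 0.0191 by limma). The remaining RefSeq-named lower genes were *Ugt1a6b*, *D630039A03Rik*, *Aldh3a1*, *Mt4*, *C2cd4b*, *4933405E24Rik*, *Slc10a4l*, *Fbll1*, *Frat2*, *Nap1l5* and *Elmod1*. *Ugt1a6b* and *Aldh3a1*, of xenobiotic metabolism, differed by −1.28 and −0.92 and −0.77 and −1.30, and the metallothionein gene *Mt4* by −0.71 and −0.72. The differences spanned −1.49 to −0.60 (E8.5) and −1.50 to −0.59 (E10.5), and 3 genes reached 2-fold at both stages.

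Lists of other tissues showed where smaller differences ran in 1 direction. Of 21 measured neural genes, 0 were higher and 13 lower at both stages by any amount, beside 25.0% lower over all autosomal genes, with a median of −0.06 (E8.5) and −0.30 (E10.5) that was negative under all 6 scalings. The neurofilament gene *Nefm* had levels of 1.06 against −0.09 at E8.5 and 4.56 against 4.06 at E10.5, *Nefl* 1.78 against 1.41 at E8.5 and 4.53 against 3.66 at E10.5, and *Fabp7*, of radial glia, 0.49 against −0.21 at E8.5 and 4.19 against 3.63 at E10.5. The summed level of the list was 88.7 against 86.3 at E8.5 and 264 against 202 at E10.5, where the brightest gene by its sum over the 4 arrays was *Hes5*. Its defining markers *Sox2*, *Pax6* and *Nes* differed by −0.15 and −0.09, by −0.06 and 0.06 and by 0.56 and −0.31. Yolk sac endoderm had 1 of 17 genes higher and 11 lower by any amount, with a median of −0.56 (E8.5) and −0.17 (E10.5), negative under all 6 scalings. *Ttr* had levels of 2.50 against 1.88 at E8.5 and −0.69 against −1.24 at E10.5, *Apoc2* 3.86 against 2.72 at E8.5 and −3.07 against −3.60 at E10.5 and *Apob* 0.52 against −0.12 at E8.5 and −3.85 against −4.35 at E10.5. The list summed to 95.8 against 62.2 at E8.5 and 35.2 against 31.2 at E10.5, where the brightest gene by its sum over the 4 arrays was *Afp*. Without *Afp* the sum was 84.8 against 54.8 at E8.5 and 18.8 against 17.6 at E10.5. Of 22 genes on the array, 21 against 20 at E8.5 and 20 against 18 at E10.5 were above background, and *Apoa4* was below it at E10.5. The parts of these lists in the erythroid differences were not tested.

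Markers of other blood and vessel cells are given beside the red cell genes. Of 11 measured macrophage and myeloid genes, 4 were higher and 4 lower by any amount, with medians of 0.02 (E8.5) and −0.06 (E10.5), turning at E8.5 to −0.02 with quantile normalization, −0.54 with spike-in scaling, −0.23 with no scaling, −0.02 with median scaling and −0.02 with the deposited table, and at E10.5 to 0.10 with spike-in scaling. Of 27 genes on the array, 14 against 13 at E8.5 and 25 against 25 at E10.5 were above background, and the summed level was 23.4 against 26.5 at E8.5 and 39.0 against 53.5 at E10.5. *Acp5*, the brightest gene by its sum over the 4 arrays, was the only 1 past 1.5-fold at both stages, and without it the sum was 21.9 against 22.5 at E8.5 and 23.6 against 22.0 at E10.5. The defining *Csf1r* differed by −0.01 and −0.48 and *Ptprc* by 0.18 and 0.09, while *Adgre1* was below background at E8.5 and differed by −0.64 at E10.5. Megakaryocyte genes had 6 of 11 higher and 1 lower, with medians of 0.27 (E8.5) and 0.06 (E10.5), turning at E8.5 to −0.29 with spike-in scaling, and at E10.5 to −0.08 with no scaling. Of 26 on the array, 13 against 11 at E8.5 and 24 against 24 at E10.5 were above background, with a summed level of 24.5 against 25.9 at E8.5 and 40.5 against 37.2 at E10.5, where the brightest gene by its sum over the 4 arrays was *F2r*. *Pf4* and *Gp9* were below background at E8.5 and differed by −0.22 and 0.00 at E10.5, and *Itga2b* differed by 0.35 and 0.28, the former turning to −0.21 under spike-in scaling. Endothelial genes had 9 of 26 higher and 2 lower, medians of 0.24 (E8.5) and −0.07 (E10.5), turning at E8.5 to −0.33 with spike-in scaling and −0.02 with no scaling, and at E10.5 to 0.09 with spike-in scaling, and a summed level of 97.5 against 109 at E8.5 and 107.3 against 103 at E10.5, where the brightest gene by its sum over the 4 arrays was *Egfl7*. *Cdh5* differed by 0.54 and −0.06 and *Kdr* by 0.24 and −0.11. Their part in the red cell differences was not tested.

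For the hedgehog pathway, 7 of 25 genes were higher and 9 lower at both stages by any amount, with medians of 0.05 (E8.5) and −0.11 (E10.5), turning at E8.5 to −0.51 with spike-in scaling and −0.21 with no scaling, and at E10.5 to 0.05 with spike-in scaling. *Hhip* was the only gene of the list past 1.5-fold at both. The forkhead genes *Foxf2* and *Foxl1*, targets of hedgehog signals in mesenchyme, differed by −0.44 and −1.40 and −0.49 and −1.21, and *Foxa2*, of floor plate and endoderm, by −1.06 and −0.32. Primary cilium genes had 5 of 38 higher and 19 lower, with medians of −0.02 (E8.5) and −0.07 (E10.5), the latter turning to 0.10 under spike-in scaling. Their differences were small, the first by rank being *Bbs9*, of the BBSome, with −0.21 (E8.5) and −0.20 (E10.5). Genes of cilium disassembly and mitotic exit had 1 of 10 higher and 3 lower (medians −0.03 (E8.5) and 0.05 (E10.5), turning at E8.5 to 0.02 with quantile normalization and 0.02 with the deposited table, and at E10.5 to −0.08 with no scaling). The DYRK family with its substrates and ligase partners had 5 of 20 higher and 3 lower (medians 0.10 (E8.5) and −0.02 (E10.5), turning at E8.5 to −0.47 with spike-in scaling and −0.16 with no scaling, and at E10.5 to 0.14 with spike-in scaling), and *Dyrk2* alone passed 1.5-fold at both stages. *Katna1*, the katanin subunit that DYRK2 phosphorylates, differed by −0.19 (E8.5) and −0.11 (E10.5), the latter turning to 0.05 under spike-in scaling, and at its other probe by −0.02 and 0.17.

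In the other lists 0 genes passed 1.5-fold at both stages, and the counts given are of differences by any amount. Genes of the tail bud, presomitic mesoderm and somites had 2 of 19 higher and 6 lower, with medians of 0.06 (E8.5) and −0.19 (E10.5), turning at E8.5 to −0.50 with spike-in scaling and −0.19 with no scaling. The caudal genes *T* and *Cdx2* were lower at both stages, with log2 differences of −0.35 and −1.49 and of −0.48 and −0.71. Cardiac genes had 4 of 21 higher and 4 lower, with medians of 0.01 (E8.5) and −0.02 (E10.5), turning at E8.5 to −0.55 with spike-in scaling, −0.25 with no scaling, −0.04 with median scaling and −0.02 with normexp correction, and at E10.5 to 0.14 with spike-in scaling. Genes of glycolysis and hypoxia had 12 of 30 higher and 1 lower, with medians of 0.24 (E8.5) and −0.01 (E10.5), turning at E8.5 to −0.32 with spike-in scaling and −0.02 with no scaling, and at E10.5 to 0.15 with spike-in scaling. Cytoplasmic ribosomal protein genes had 30 of 75 higher and 5 lower, with medians of 0.00 (E8.5) and 0.08 (E10.5), turning at E8.5 to −0.05 with quantile normalization, −0.56 with spike-in scaling, −0.25 with no scaling, −0.04 with median scaling, −0.02 with normexp correction and −0.05 with the deposited table, and at E10.5 to −0.05 with no scaling. Under quantile normalization 13 of these were higher and 14 lower. Oxidative phosphorylation genes had 10 of 75 higher and 22 lower, with medians of −0.15 (E8.5) and 0.03 (E10.5), turning at E10.5 to −0.11 with no scaling. Cell cycle and replication genes had 6 of 24 higher and 1 lower, with medians of −0.04 (E8.5) and 0.08 (E10.5), turning at E8.5 to 0.02 with quantile normalization and 0.03 with the deposited table, and at E10.5 to −0.05 with no scaling. p53 targets had 3 of 17 higher and 3 lower, with medians of 0.04 (E8.5) and −0.04 (E10.5), turning at E8.5 to −0.52 with spike-in scaling, −0.22 with no scaling and −0.02 with normexp correction, and at E10.5 to 0.13 with spike-in scaling. Immediate early and stress genes had 8 of 22 higher and 2 lower, with medians of 0.07 (E8.5) and 0.05 (E10.5), turning at E8.5 to −0.50 with spike-in scaling and −0.19 with no scaling, and at E10.5 to −0.08 with no scaling. Imprinted growth genes had 4 of 20 higher and 4 lower, with medians of 0.02 (E8.5) and −0.05 (E10.5), turning at E8.5 to −0.55 with spike-in scaling, −0.24 with no scaling, −0.03 with median scaling and −0.03 with normexp correction, and at E10.5 to 0.11 with spike-in scaling. Epithelial keratin and junction genes had 5 of 17 higher and 3 lower, with medians of −0.02 (E8.5) and 0.05 (E10.5), turning at E10.5 to −0.08 with no scaling.

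**Figure D3:**
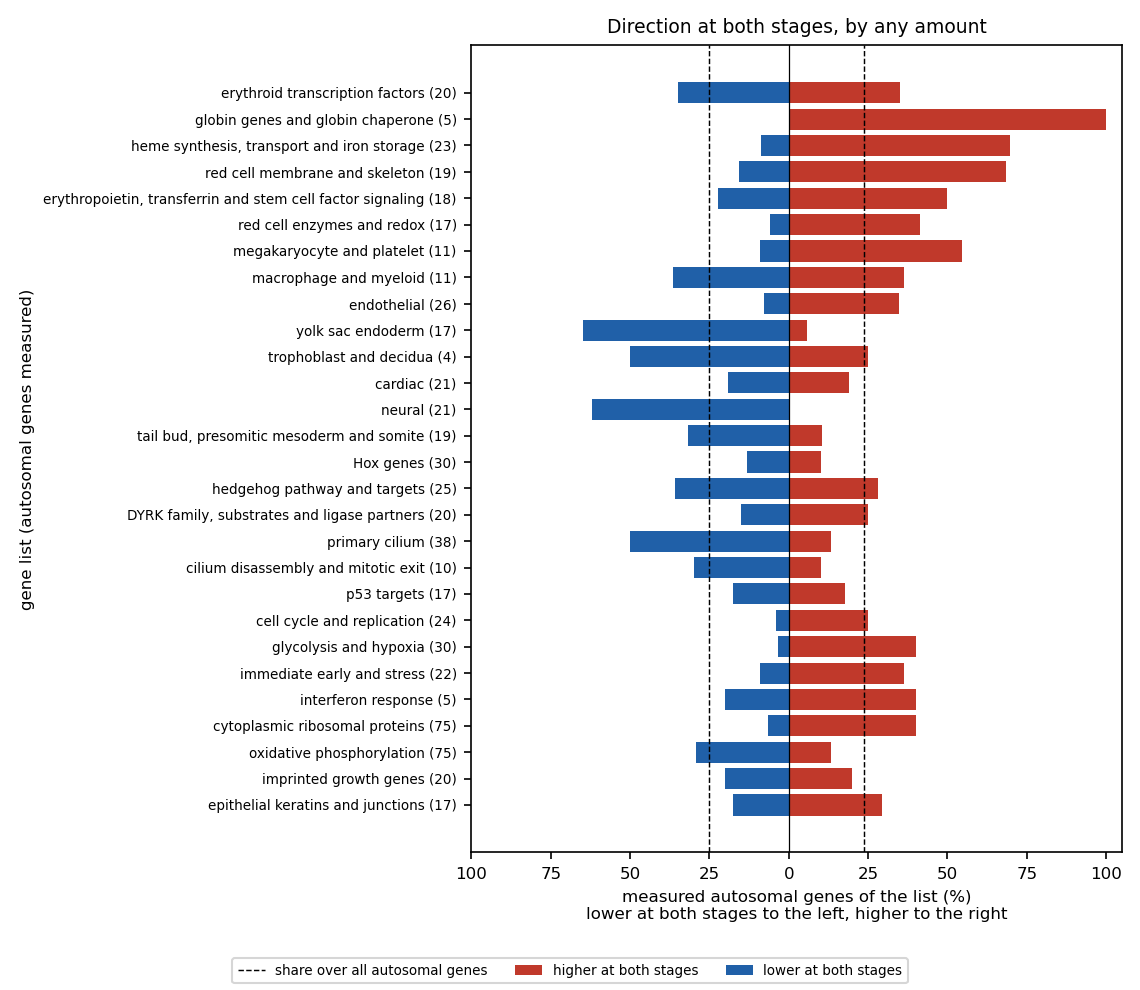
Share of the measured autosomal genes of each of 28 lists (y axis, number measured in brackets) that were higher (red) or lower (blue) on both arrays labelled *Dyrk2* knockout by any amount (x axis, percent). Dashed lines mark the shares over all autosomal genes, 23.7% and 25.0%. Under spike-in scaling the heme list held 2 higher genes and no scaling gave 4. The globin, heme and membrane lists reach farthest to the right and the yolk sac endoderm and neural lists farthest to the left.

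Near the threshold, ENSMUST00000119148 (0.67 and 0.59) and *F2* (−0.75 and −0.59) lay just inside it, and *Catsperd* (0.58 and 0.69) and *Ucp3* (0.58 and 0.58) just outside. The 57 higher and 41 lower genes were spread over the autosomes, and the probes of only 2 neighbouring pairs started within 500 kb of each other. *Epor* and *Acp5*, both higher, lie 167768 bases apart on chromosome 9 by these probes (mm9). The other pair, *Gtse1* and a lincRNA on chromosome 15, differed in opposite directions.

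Because erythroid genes were among those higher at both stages, their promoters were read for letters that match known erythroid motifs. The 3 erythroid genes ranked first were *Icam4*, *Slc4a1* and *Epor*, and the 250 bases before the start of *Icam4* (chr9:21029182-21029431, plus strand) and *Epor* (chr9:21963577-21963826, minus strand) are shown 5′ to 3′, from RefSeq on GRCm38.p6. *Slc4a1* had no entry among the promoters used, so that its motifs were not read. AGATAA, bound by factors such as GATA1, and CCACACCC, bound by KLF1, were searched on both strands, and capitals mark the matches.
*Icam4*: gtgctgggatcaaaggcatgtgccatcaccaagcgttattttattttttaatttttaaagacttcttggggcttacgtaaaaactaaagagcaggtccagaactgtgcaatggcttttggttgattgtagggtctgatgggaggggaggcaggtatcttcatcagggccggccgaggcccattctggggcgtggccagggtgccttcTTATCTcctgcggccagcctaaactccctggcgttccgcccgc
*Epor*: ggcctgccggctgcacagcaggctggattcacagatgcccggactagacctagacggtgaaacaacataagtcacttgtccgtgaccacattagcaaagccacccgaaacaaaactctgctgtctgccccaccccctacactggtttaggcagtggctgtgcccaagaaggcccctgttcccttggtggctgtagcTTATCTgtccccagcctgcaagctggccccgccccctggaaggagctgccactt
Each window held 1 match to the GATA motif, on the reverse strand, and 0 to the KLF1 motif. Of 32851 promoters of this length, 9.99% held the GATA motif and 3.20% the KLF1 motif. A match is a description of the letters only.

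The third motif searched, CACGTG for comparison, had 0 matches in these windows, and 6.02% of all promoters of this length held it. Counts of matches over the higher and lower genes were added after the data were seen. Of the higher genes, 29 matched the promoter table by symbol, with 36 promoters. The GATA motif was in 8 of these (22.2%), the KLF1 motif in 1 and the comparison motif in 2. Those with the GATA motif were of *Acp5*, *Epor*, *Icam4*, *Rhd*, *6030468B19Rik*, *Krtap20-2*, *Pdia2* and *Tspan32*. Of the lower genes, 23 matched, with 33 promoters, and the motifs were in 1, 2 and 0.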

How the data were processed

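Levels came from 4 whole-embryo RNA samples, 1 array for each of WT and *Dyrk2* knockout at E8.5 and E10.5, grouped by the labels. The authors deposited the output of Agilent Feature Extraction (10.7.1.1 in the file headers, 9.5.1.1 in the submitters' processing notes), whose processed intensity is on a linear scale, with background and spatial trend removed and no scaling from array to array. The flags for outlier spots, saturation and signal well above background are also as deposited by the authors. A second deposited table of intensities, whose scale is not stated, had 4 columns of 1 distribution, each with a median of 4.79 after log2. It differed from quantile-normalized scanner values by a median of 0.00882 on the first array and served as an alternative. All arrays were on 1 slide.

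After log2, repeated spots were combined by their mean, outlier spots left out, and each array was centred on its 75th percentile. Repeated spots had a median SD of 0.0938, 0.118, 0.0732 and 0.0834 (log2) on the arrays in the report's order, and no probe was saturated. Of 56605 probes, 33903 were named through a RefSeq accession and 9946 through a symbol or synonym, and 12756 kept the name in the file. Positions of probes follow the annotation of the array, mm9. A gene was read by its brightest probe. Genotype was tested with limma 3.58.1 (lmFit, eBayes with an intensity trend) in R 4.3.3, with embryonic day as a block, over probes well above background on all 4 arrays, with Benjamini-Hochberg adjustment. The fit left 1 residual degree of freedom, which measures how far the genotype differences of the stages lie apart (median residual SD 0.110, prior degrees of freedom 8.52). Python 3.11.15, numpy 2.4.6, pandas 2.3.3, matplotlib 3.10.9 and data.table (1.17.8) were used.

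Named were *Dyrk2*, every called autosomal gene, the 15 RefSeq-named genes ranked first in each direction by the smaller of the differences at the stages, up to 4 genes of each list moving in 1 direction at both stages, defining markers, and genes beside the threshold. Other members, and genes given to describe a list, were named after their values were seen. The members, the 28 lists and the tests were chosen with earlier results of these data known. The steps were tested on simulated data of 28622 probes. Of 100 probes changed 2-fold, limma recovered 86 and the 1.5-fold rule at both stages 96. Of the probes left unchanged in the simulation, 16 were called by limma and 107 passed the rule. In the data limma called 10 of 28622 probes, and 57 and 41 autosomal genes passed the rule. Genes without a change can therefore be among those listed. Alternatives were quantile normalization, scaling by the 7 spike-in probes or by the median, no scaling, normexp with an offset of 50, the deposited table, a filter on 2 arrays or none, outlier spots kept, limma without the trend, robust or without the block, the mean over probes of a gene, and a 2-fold threshold. Counts at a single stage were added after the data were seen.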

Additional observations from a re-analysis of the deposited data

Results flagged for a closer look

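The median difference of the Hox genes pointed in opposite directions at the stages, 0.34 at E8.5 and −0.17 at E10.5, which are 0.51 apart. Of 30 measured Hox genes, 23 differed in opposite directions at the stages, 3 were higher at both and 4 lower at both, and at E8.5 the median turned to −0.22 under spike-in scaling. The trophoblast and decidua list, with 4 measured genes, had medians of −0.24 at E8.5 and 0.12 at E10.5 (a difference of −0.35), the latter turning to −0.01 without scaling. Its summed level was 18.8 against 13.6 at E8.5 and 18.2 against 21.2 at E10.5, where the brightest gene by its sum over the 4 arrays was *Gcm1*. Without that gene the sum was 4.49 against 4.65 at E8.5 and 2.51 against 2.52 at E10.5. Its defining gene *Tpbpa* was below background on all 4 arrays, *Prl8a2* was above it only at E8.5, where it differed by 1.45, and *Prl3d1* only on the E8.5 array labelled *Dyrk2*-/-, by at least 6.62-fold. With 1 array per group, neither difference between the stages was tested.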

How the results depend on the processing

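The numbers of probes and of autosomal genes that limma called, 10 and 9, moved to 64 and 48 with quantile normalization, 0 and 0 with spike-in scaling (92 probes at an unadjusted p under 0.05), 650 and 471 without scaling (probes 72 higher and 578 lower), 339 and 247 with median scaling (probes 133 higher and 206 lower), 21 and 15 with normexp, and 77 and 59 in the deposited table. They were 6 and 4 with a filter on 2 arrays, 564 and 398 with no filter, 0 and 0 without the intensity trend (1492 probes unadjusted), 5 and 4 with robust eBayes, 0 and 0 without the block (84 probes unadjusted), and 4 genes with the mean over probes. In the main setting 9 higher and 1 lower probes were called, against 38 higher and 26 lower with quantile normalization, 17 higher and 4 lower with normexp and 43 higher and 34 lower in the deposited table. The filters on 2 arrays and on none gave 4 higher and 2 lower, and 282 higher and 282 lower. The counts of genes higher, lower and opposite at both stages, 57, 41 and 35, moved to 27, 77 and 218 with spike-in scaling, 28, 13 and 5 with normexp, 121, 161 and 142 with a filter on 2 arrays, 488, 525 and 908 with no filter, and 14, 3 and 0 at 2-fold. Without scaling 25 were higher and 158 lower. At E8.5 alone 663 were higher and 576 lower, and at E10.5 alone 248 and 286, settings added after the data were seen. The erythroid median of 0.15 turned to −0.0525 with spike-in scaling and −0.0468 without scaling. Of the 30 genes ranked first, 16 passed 1.5-fold at both stages after normexp and 24 with spike-in scaling. The cause of these changes was not tested. For single named genes, 38 values lost limma's call, 170 gained it, 252 uncalled values moved by the median residual SD or more, and 1208 kept the call or moved by less. Of the 9 called genes, *Epor*, *Acp5*, BI657997 and ENSMUST00000117861 were called in 9 of 12 alternatives, *Slc25a37*, *Cited4*, *Blvrb* and *Redrum* in 7, and the lincRNA on chromosome 2 in 6. The block on embryonic day pairs the arrays of a stage. No paired analysis by replicate was possible because each group holds 1 array, and leaving out an array leaves limma no residual degree of freedom. Dim probes limit what a fold can show, and how a level near background affects it was not tested.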
